A study of Arabidopsis thaliana with 27 samples.

Results

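In Arabidopsis thaliana, 51 of 24607 loci listed in at least 1 library were first expressed in the 1-cell embryo. They were chosen from the expression values themselves, as loci with a level under 1 FPKM in every egg cell and zygote library of the accession Col and of at least 5 FPKM in every 1-cell embryo library. FPKM counts sequenced fragments relative to transcript length and library total. The study sequenced polyadenylated RNA, captured on beads and amplified as cDNA with a SMART-Seq v4 kit, in 27 libraries, 3 in each of 9 groups, from plants grown in a greenhouse under long days. Col supplied mature egg cells (EC), zygotes taken 14 hours (Zy14) and 24 hours (Zy24) after pollination, and embryos of 1 cell (1C) or 32 cells (32C). Hybrid zygotes of the same hours made up 4 more groups, from Ler mothers and Col fathers (LZy14, LZy24) or from Col mothers and Ler fathers (CZy14, CZy24). Both crosses join 1 Col and 1 Ler genome, and the hybrid groups have no embryo stage. The labels do not say whether replicates came from separate plants, so p-values measure the spread between these samples, which may be technical.

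After fertilization the zygote of Arabidopsis elongates and then divides unequally, giving a small apical cell that founds most of the embryo and a large basal cell that founds the suspensor. Before that division the zygote carries transcripts left by the egg cell and the sperm and starts to make its own. The surface layer of later embryos is covered by a cuticle made of lipids, and auxin, perceived by the F-box receptors of the TIR1/AFB family and carried by influx and efflux carriers, is a main patterning signal from the first divisions on.

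The libraries listed 14902 to 20062 loci each above 0, and the FPKM of a library summed to 746880 to 940207. No read counts were given. Steps among the low values placed 1 FPKM at about 13.7 to 28.1 fragments per kb of transcript (median 18.5), an estimate that allows no counting interval. A locus that a library did not list counts as 0 and is called listed at 0, since 35 of 3770 abundant loci (mean of at least 50 FPKM) were at 0 in a library whose fellow replicates were above 10. Among stage genes of the Col groups, the egg cell genes EC1.1 to EC1.5 summed to 56607 to 105053 FPKM in EC and 18.6 to 26.7 in 1C, and the embryo regulators WOX2, WOX8 and WOX9 averaged 104, 135 and 328 FPKM in 1C. Of 13 listed markers of endosperm and central cell, 7 were at 0 in all 1C libraries, PHE1, PHE2, MEA and MINI3 among them, and AGL62 averaged 0.0167 FPKM; their summed level was 195 to 275 FPKM in 1C and 108 to 170 in Zy24, with SUC5 at means of 177 and 137 and EDE1 at 47.2 and 0.233. SUC5, most of that sum, was present in every Col group, also averaging 103 FPKM in EC, 102 in Zy14 and 168 in 32C. Seed coat markers summed to 2.62 to 7.88 FPKM in 1C against 17.4 to 25.0 in Zy24. In bulk RNA, fewer cells of a type and less RNA per cell cannot be told apart.

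For 4 of the genes the 250 bases before the annotated gene start are printed because each leads a result below: AT5G08460 had the highest 1C level, KCS20 a large difference between the reciprocal crosses, HAT3 was listed at 0 in every zygote library, and CYCB2;1 was the mitotic cyclin of the set. The genes were found by locus tag in the RefSeq annotation of TAIR10.1, and the windows, which no other annotated gene overlaps, are chr5:2732970-2733219 (plus strand), chr5:17585273-17585522 (plus), chr3:22322662-22322911 (minus) and chr2:7663805-7664054 (plus). Each sequence runs 5′ to 3′ towards the gene, and capitals mark TATAAA and AACGG, the core of the mitosis-specific activator element, on either strand.
AT5G08460: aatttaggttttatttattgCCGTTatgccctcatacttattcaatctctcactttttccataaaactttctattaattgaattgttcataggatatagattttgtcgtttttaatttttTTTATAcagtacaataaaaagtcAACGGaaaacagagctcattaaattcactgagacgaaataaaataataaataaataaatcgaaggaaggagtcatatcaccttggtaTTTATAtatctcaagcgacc
KCS20: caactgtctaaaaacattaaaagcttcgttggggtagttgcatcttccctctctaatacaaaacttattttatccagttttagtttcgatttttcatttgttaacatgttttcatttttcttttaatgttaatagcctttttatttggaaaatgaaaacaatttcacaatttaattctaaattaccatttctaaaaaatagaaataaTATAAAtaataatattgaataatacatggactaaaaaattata
HAT3: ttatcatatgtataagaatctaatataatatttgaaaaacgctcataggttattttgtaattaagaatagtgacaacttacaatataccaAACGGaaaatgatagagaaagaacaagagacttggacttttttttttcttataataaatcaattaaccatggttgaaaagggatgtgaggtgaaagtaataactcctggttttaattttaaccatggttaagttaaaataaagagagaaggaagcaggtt
CYCB2;1: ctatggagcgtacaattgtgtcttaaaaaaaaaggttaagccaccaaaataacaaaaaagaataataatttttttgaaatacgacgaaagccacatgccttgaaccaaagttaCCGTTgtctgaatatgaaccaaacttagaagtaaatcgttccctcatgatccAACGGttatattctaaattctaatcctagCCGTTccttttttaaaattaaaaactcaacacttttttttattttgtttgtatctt
AACGG stood 3 times in the CYCB2;1 window. Over the set it was in 28.0% of 50 windows, against 21.3% of all 23470 protein-coding loci, and TATAAA was in 46.0% against 47.0%. The L1 box of surface-layer genes (TAAATGCA or TAAATGTA) was in 0 of 50 windows against 4.50% and the auxin response element TGTCTC in 8.00% against 10.8%. All motifs were searched on both strands, and the shares are descriptions with no test.

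**Figure D1:**
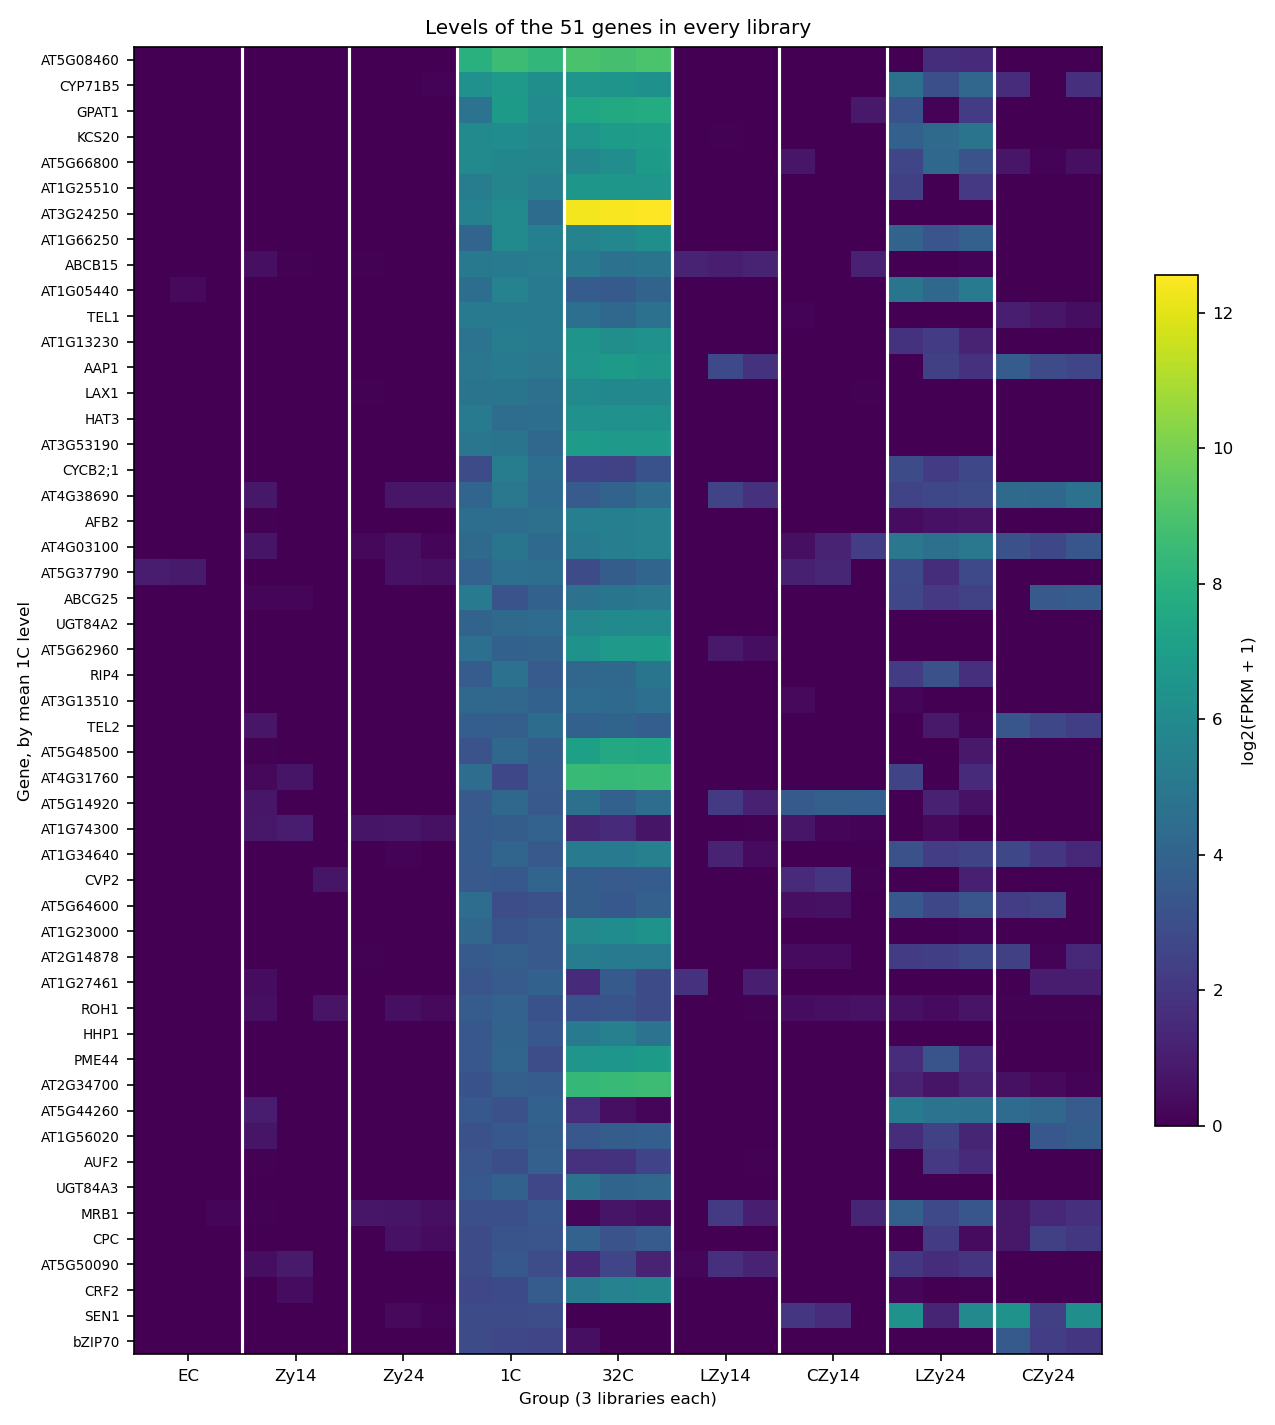
Level of each of the 51 genes (rows, ordered by mean 1C level) in each of 27 libraries (columns, 3 per group), coloured by log2(FPKM + 1). The EC, Zy14 and Zy24 columns stay at or near 0 because the genes were chosen so, the 1C and 32C columns are filled, and LZy24 shows more genes above 0 than CZy24.

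The choice left room for low values before the 1-cell stage. In the 9 EC, Zy14 and Zy24 libraries, 21 genes were listed at 0 throughout, 64 of 459 values were above 0, and the highest was 0.930 FPKM. Mean 1C levels ran from 5.53 FPKM (bZIP70) to 320 (AT5G08460), with a median of 16.1. The highest of the 3 1C values was a median 1.59 times the lowest, and over 3 times the lowest for 7 genes; 26 genes were highest in 1C replicate 2, 11 in replicate 1 and 14 in replicate 3. Just inside the lower limit in 1C, bZIP70 had a lowest library of 5.07 FPKM, UGT84A3 5.31 and CRF2 5.31, and just outside it were IMD1 at 4.79, AT2G20515 at 4.78 and MYB2 at 4.52. At the upper limit, AT1G74300 and AT5G44260 reached 0.930 FPKM and AT5G37790 reached 0.910, whereas NF-YA3 at 1.04, AT3G05600 at 1.18 and RR1 at 1.18 were left out.

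The genes of lipid metabolism were among the most abundant in 1C. AT5G08460, a GDSL-type lipase of the family that includes cutin-building enzymes, had 248.49, 395.00 and 317.23 FPKM in 1C and 491.44, 458.13 and 517.40 in 32C, so every 32C library lay above every 1C library. GPAT1, a glycerol-3-phosphate acyltransferase known for its role in tapetum and pollen development, had 26.77, 114.62 and 64.90 FPKM in 1C, a wide spread, and 166.90 to 210.61 in 32C. KCS20, an enzyme that elongates fatty acids to the very long chains of wax and suberin, had 60.62, 67.91 and 55.61 FPKM in 1C and 93.89 to 125.59 in 32C. All 3 were listed at 0 in every EC and Col zygote library.

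The cell wall genes averaged 10.8 to 40.6 FPKM in 1C, below the lipid genes (61.4 to 320), and mostly more in 32C. AT4G31760, a class III peroxidase family member, had 21.26, 5.57 and 10.99 FPKM in 1C and 351.89, 344.47 and 352.96 in 32C. AT2G34700, of the pollen Ole e 1 and extensin family, averaged 10.8 ± 2.61 (SD, n = 3) FPKM in 1C and 360 ± 33.4 in 32C, and PME44, a pectin methylesterase, 10.9 ± 4.63 and 99.9 ± 10.8. AT3G53190, a pectin lyase-like protein, averaged 24.9 FPKM in 1C and 111 in 32C. Only for the fifth, AT1G66250, a glycosyl hydrolase of family 17 with 1C values of 16.12, 63.74 and 42.03 FPKM, did the 1C and 32C libraries overlap.

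Among regulators of transcription and RNA, HAT3, a homeodomain-leucine zipper protein of class II that acts in leaf and cotyledon polarity, had 33.33, 21.64 and 22.15 FPKM in 1C and 79.21, 79.36 and 87.24 in 32C. CRF2, a cytokinin response factor that is also a target of the auxin response factor MONOPTEROS (ARF5), had 5.31, 5.96 and 11.45 FPKM in 1C and 35.24 to 52.39 in 32C. For both, every 32C library was above every 1C library. ARF5 itself was not in the set, because a Zy14 library held 1.57 FPKM of it; its 1C values were 25.77, 20.03 and 16.12 FPKM. TEL1 and TEL2 encode Mei2-like RNA-binding proteins expressed in meristems. TEL1 was tight in 1C, with 34.97, 33.36 and 34.51 FPKM, and lower in 32C (17.97 to 25.12), whereas TEL2 averaged 15.5 ± 4.76 and 13.9 ± 1.73 FPKM with overlapping libraries. CPC, the R3-MYB protein known for root hair fate, averaged 7.96 FPKM in 1C and 11.3 in 32C and also overlapped. The tandem zinc finger gene AT5G44260 and the basic leucine zipper gene bZIP70 averaged 10.4 and 5.53 FPKM in 1C and were lower in every 32C library, averaging 0.857 and 0.143.

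Of the auxin genes, AFB2 and LAX1 differed little between 1C replicates. AFB2, an auxin receptor, had 22.18, 21.26 and 23.83 FPKM in 1C and 40.63, 42.47 and 45.55 in 32C. LAX1, an influx carrier of the AUX1 family, had 27.05, 28.05 and 23.95 FPKM in 1C and 56.41 to 62.83 in 32C. In both, the 2 embryo groups did not overlap. AFB2 was the only 1 of the 6 listed TIR1/AFB genes in the set: TIR1, AFB3, AFB4 and AFB5 averaged 43.9, 3.56, 7.82 and 12.6 FPKM in Zy24 already, and AFB1 stayed at 0.473 in 1C. Of 22 listed auxin transport genes LAX1 alone was in the set; AUX1 averaged 147 FPKM in EC, 0.310 in Zy24 and 8.85 in 1C, and LAX2 0.0767 in 1C and 51.9 in 32C. AUF2, an F-box protein gene induced by auxin, spread more, with 8.97, 7.11 and 13.34 FPKM in 1C, and had 2.42 to 4.81 in 32C, below every 1C library.

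CYCB2;1, a B-type cyclin of the entry into mitosis, varied most between 1C libraries, at 6.20, 39.06 and 22.26 FPKM, and had 4.67, 4.39 and 7.95 FPKM in 32C. It was the only cyclin in the set; the other listed B-type cyclins averaged 20.6 to 83.3 FPKM in Zy24, among them CYCB1;1 with 23.1 in Zy24 and 236 in 1C. The 1C libraries ranked in the same order for CYCB1;1 (119.58, 384.54 and 203.67 FPKM) and for EDE1 (22.51, 77.81 and 41.32), a microtubule-associated protein of endosperm that is also listed as an endosperm marker. The part of this spread in the levels of other genes was not tested.

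Among signalling genes, AT4G03100, annotated as a GTPase-activating protein, averaged 22.1 ± 5.53 FPKM in 1C, and RIP4 16.2 ± 8.26. AT5G66800, annotated as similar to membrane-associated kinase regulators, averaged 55.5 ± 5.54 FPKM, the kinase gene AT5G37790 19.8 ± 4.80 and the leucine-rich repeat gene AT1G13230 34.0 ± 6.61. CVP2, a phosphoinositide phosphatase needed for vein continuity in cotyledons, had 10.20, 10.08 and 15.81 FPKM in 1C and 11.25 to 11.94 in 32C. ROH1, an interactor of the exocyst, averaged 11.3 and 7.64 FPKM, and HHP1, a heptahelical membrane protein, 11.3 and 35.1. Of the transporters, AAP1, an amino acid permease of seeds, averaged 31.8 ± 3.00 FPKM in 1C and 102 ± 9.37 in 32C, ABCB15 35.4 ± 3.69 and 29.6 ± 5.29, and the abscisic acid exporter ABCG25 18.8 ± 13.8 and 28.7 ± 3.21, its 1C libraries being 34.48, 8.22 and 13.78.

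The remaining genes were enzymes, proteases and proteins of unclear role. CYP71B5, a cytochrome P450, had the second highest 1C mean, 87.1 ± 16.4 FPKM, and 86.5 ± 8.08 in 32C. AT1G05440, annotated as a C-8 sterol isomerase, averaged 34.9 FPKM in 1C and 12.3 in 32C with no overlap. The aspartyl protease gene AT1G25510 averaged 43.7 and 96.6 FPKM, and the sinapate glucosyltransferase UGT84A2 and its relative UGT84A3 18.0 and 9.69 in 1C and 59.7 and 19.1 in 32C. The phosphodiesterase-like gene AT4G38690 averaged 22.4 FPKM in 1C, the peptidase genes AT3G13510 and AT1G34640 16.1 and 12.4, and the hydrolase gene AT1G74300 12.4. The O-fucosyltransferase gene AT5G64600 had 21.54, 6.95 and 7.58 FPKM in 1C. SEN1, a gene induced by darkness and senescence, had 6.44, 6.52 and 6.76 FPKM in 1C and was listed at 0 in all 32C libraries. The glycine-rich protein gene AT3G24250 had 44.24, 62.18 and 20.55 FPKM in 1C and 5103.16, 5522.66 and 6005.66 in 32C, the highest value of the set. The rest averaged 7.76 to 17.3 FPKM in 1C: AT5G62960, AT5G48500, AT5G14920 (a gibberellin-regulated family protein), AT1G23000, AT2G14878 (a noncoding RNA, the only one of the set), AT1G27461, AT1G56020, MRB1 and AT5G50090.

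Since the labels do not give the strand of the library, reads of overlapping genes on opposite strands cannot be told apart. Such overlaps with another listed locus were found for AT1G34640, AT1G66250, AT1G74300 (101 bases with HSP101, which averaged 83.8 FPKM in 1C and 13.7 in Zy24), MRB1, PME44, bZIP70 (118 bases with AT5G60840, at 28.2 FPKM in 1C) and AT5G64600. The closest paralogs by transcript were AT1G74290 and AT1G74280, 87.7% and 86.9% identical to AT1G74300 and at 1.22 and 1.70 FPKM in 1C, and AT1G55360, 85.1% identical to AT3G13510 and at 11.4 FPKM in 1C. KCS20 was 84.2% identical to KCS2 (listed at 0 in 1C), AT5G37790 83.8% to AT1G66460 (also at 0), CVP2 83.6% to CVL1 (1.49 FPKM) and AFB2 82.1% to AFB3 (21.6 FPKM). Apart from the HSP101 overlap, 87.7% was the highest identity found in the search.

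Most of the genes stayed on in the 32-cell embryo. At least 1 FPKM in all 3 32C libraries was found for 46 of 51 genes (90.2%), against 9.92% of the 4847 other loci under 1 FPKM in every EC, Zy14 and Zy24 library. Those other loci did not have to be expressed in 1C, as the 51 genes did, so the percentages do not compare like loci. The highest mean of the 9 groups was in 32C for 32 genes, 1C for 15, LZy24 for 2 and CZy24 for 2. All 3 32C libraries lay above all 3 1C libraries for 25 genes (49.0%), below them for 9 (17.6%), and overlapped for 17; over all 19868 loci kept these shares were 26.7% and 26.6%. Because the 1C level chose the genes, the counts are given without a test. The median difference between 32C and 1C was 0.63 on the log2(FPKM + 1) scale, against 0.00 over all loci kept. The higher genes included all 3 of lipid metabolism, 4 of 5 of the cell wall and both auxin receptor and carrier genes, and the largest differences were 7.13 ± 0.31 (SE) for AT3G24250, 4.96 ± 0.26 for AT2G34700 and 4.86 ± 0.45 for AT4G31760. Those below were AT1G05440, AUF2, AT1G74300, TEL1, MRB1, SEN1, AT5G44260, AT5G50090 and bZIP70.

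**Figure D2:**
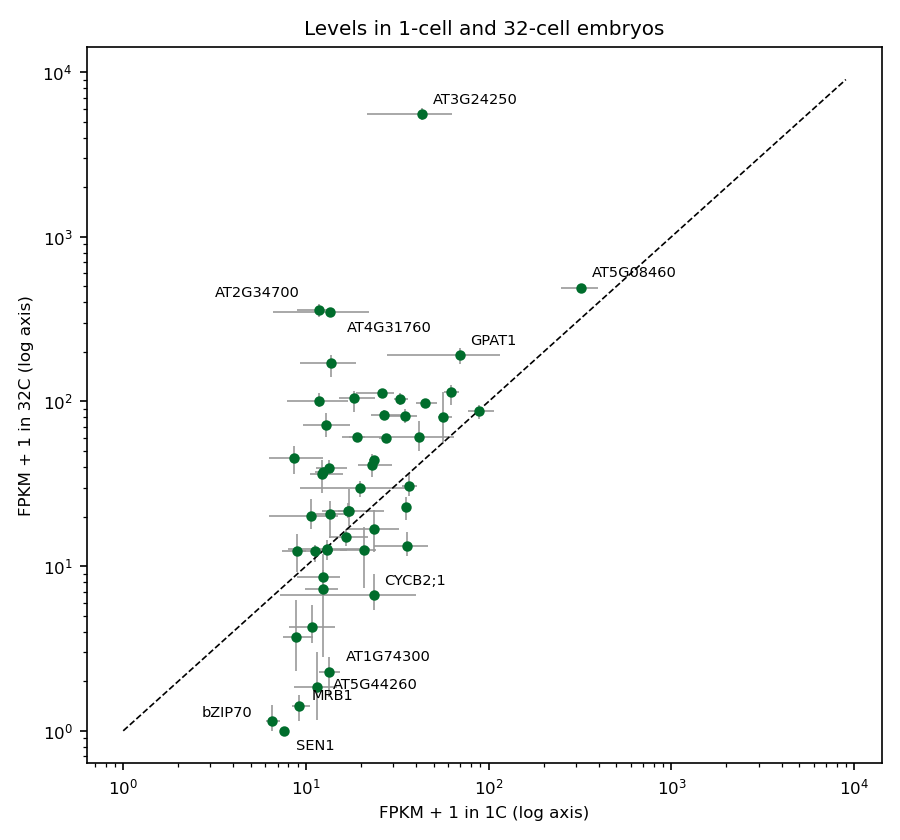
Mean level of each of the 51 genes in 1C (x axis) and 32C (y axis) as FPKM + 1 on log axes; bars run from the lowest to the highest of 3 libraries, and the dashed line marks equal levels. AT3G24250 stands highest, at 5544 FPKM in 32C, and SEN1, bZIP70, MRB1, AT5G44260 and AT1G74300 lie lowest.

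The hybrid zygotes had no part in the choice and give a separate reading of when the genes appear. First expression at the 1-cell stage describes the sampled Col stages, since many of the genes were already present in hybrid zygotes at 24 hours. At 14 hours few were present: LZy14 libraries held 2 to 7 of the 51 genes at 1 FPKM or more and CZy14 libraries 4 to 5. At 24 hours LZy24 libraries held 25 to 29 and CZy24 libraries 12 to 14, although every Col Zy24 library was under 1 FPKM for all of them by the choice. At least 1 FPKM in all 3 libraries was reached by 21 genes (41.2%) in LZy24 and 8 (15.7%) in CZy24. Among the 4847 other loci silent in EC and Col zygotes the shares were 2.48% and 2.06%, and among 163 of them that were under 1 FPKM in 1C and at 5 FPKM or more in every 32C library, 4.91% and 2.45%. Neither of these sets of loci had to be expressed in 1C, as the 51 genes did. In all 12 hybrid libraries 15 genes stayed under 1 FPKM, and 6 were listed at 0: HAT3, AT3G24250, AT3G53190, UGT84A2, UGT84A3 and HHP1. AFB2, LAX1 and CRF2 were among the 15, with highest hybrid values of 0.57, 0.04 and 0.13 FPKM.

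**Figure D3:**
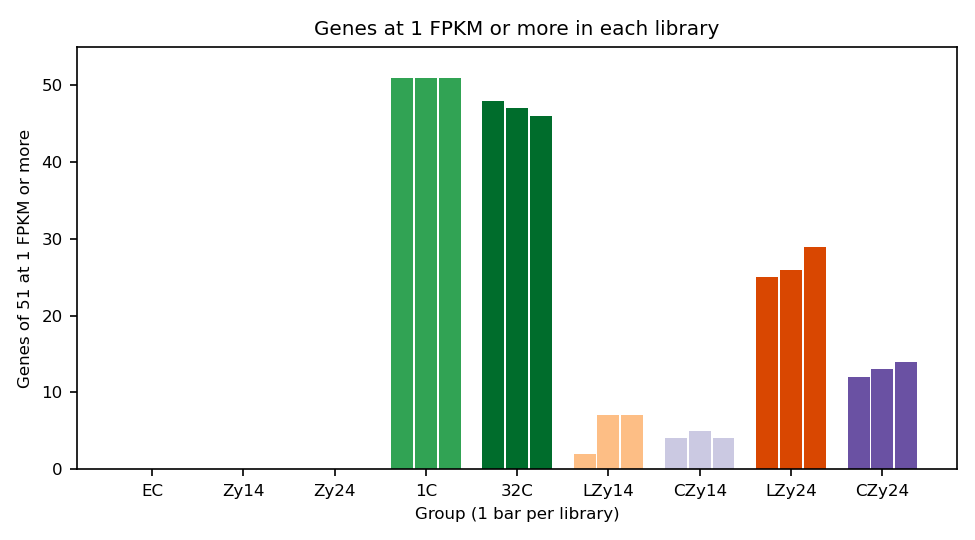
Number of the 51 genes at 1 FPKM or more (y axis) in each library, 1 bar per library and 3 per group. The bars are 0 in EC, Zy14 and Zy24 and 51 in 1C by the choice of the genes; LZy24 libraries reach 25 to 29 and CZy24 libraries 12 to 14.

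From 14 to 24 hours, more genes of the set rose in the cross with a Ler mother. In the other cross the share that rose was near that of all loci. In the limma fit of the 15 hybrid and 32C libraries, with Benjamini-Hochberg adjustment over 19868 loci, calls required a log2 change of at least 1 and an adjusted p under 0.05. At 14 hours 37 of the 51 genes were listed at 0 in all LZy14 libraries and 35 in all CZy14 libraries. Such genes could only rise or stay, so falls in the set cannot be compared with falls over all loci. Choosing genes absent from Col zygotes and present in 1C also favours a rise. The rising shares of all loci, which were not chosen so, are therefore no like measure. In LZy24 against LZy14, 25 of 51 genes (49.0%) rose, 1 fell and 25 were not called, against 17.4% of all loci rising and 19.1% falling, and the median change was 1.04 against 0.00. In CZy24 against CZy14, 12 (23.5%) rose, 2 fell and 37 were not called, against 19.0% and 24.5% of all loci, with medians of 0.00 and -0.08. That rising share is near the background in this fit. With 5 added in place of 1, 8 genes rose, beside 2897 of 19868 loci, and with only the groups compared 8, beside 2991. Under quantile normalization, the highest count, 18 genes rose, beside 4095 loci. The Ler-mother count moved too, to 11 risen genes with 5 added, beside 2411 loci, and 19 with only the groups compared, beside 3114. Under quantile normalization it was 27, beside 3535. By role, assigned after the levels were seen, all 3 lipid genes, 4 of 5 cell wall genes, 5 of 8 signalling genes and CYCB2;1 rose in the Ler-mother cross, against 0, 0, 1 (with 1 that fell) and 0 in the Col-mother cross. For the lipid and cell wall genes and CYCB2;1 the latter counts were also 0 at an unadjusted p under 0.05 by limma. Of the 7 regulators of transcription and RNA, 1 rose in the Ler-mother cross and 4 in the Col-mother cross, and of the 3 transporters 1 rose and 1 fell in the former and 2 rose in the latter. By the test of the difference between these changes, the rise was larger in the Ler-mother cross for 1 lipid gene (KCS20), 2 cell wall genes (AT1G66250 and PME44), 5 signalling genes and CYCB2;1, and smaller for 2 regulators (TEL2 and bZIP70) and 1 transporter (AAP1).

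In LZy24 the GTPase-activating protein gene AT4G03100 rose most, from 0 to 30.41, 24.15 and 31.27 FPKM (4.88 ± 0.37). AT1G05440 went from 0 in all LZy14 libraries to 28.92, 17.65 and 36.06 FPKM (log2 change 4.78 ± 0.28, adjusted p = 1.54e-08 by limma), and KCS20 from 0, 0.04 and 0 to 13.52, 19.31 and 27.13 (4.32 ± 0.27, adjusted p = 3.21e-08). The groups did not overlap for either gene. AT1G66250 went from 0 to 14.81, 8.78 and 13.54 FPKM (3.71 ± 0.27), CYP71B5 from 0 to 24.09, 7.34 and 16.56 (3.95 ± 0.45), and AT5G66800 from 0 to 5.18, 17.37 and 8.42 (3.35 ± 0.41). ABCB15, at 1.33, 1.07 and 1.31 FPKM in LZy14, was the 1 gene that fell (-1.12 ± 0.30, adjusted p = 0.00743). AT5G08460, the highest gene of 1C, reached only 0, 2.11 and 1.81 FPKM in LZy24 (1.04 ± 0.36), and its call, like those of AUF2, AT4G31760, GPAT1, AT1G25510, AT2G34700 and AT4G38690, was lost when certain single libraries were left out. Without LZy24 replicate 3 the risen genes numbered 18, the fewest of any such fit, beside 3204 of all loci.

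In the Col-mother cross AT4G38690 and AT5G44260 rose most. AT4G38690 went from 0 to 19.54, 16.99 and 25.67 FPKM (4.42 ± 0.50, adjusted p = 5.63e-06), AT5G44260 from 0 to 20.23, 16.86 and 11.15 (4.06 ± 0.35, adjusted p = 4.53e-07) and bZIP70 from 0 to 10.64, 3.86 and 2.93 (2.60 ± 0.32, adjusted p = 1.29e-05), each with no overlap. TEL2 went from 0 to 9.29, 5.61 and 4.01 FPKM (2.80 ± 0.31), AAP1 from 0 to 11.44, 6.39 and 5.24 (3.05 ± 0.65) and CPC from 0 to 0.77, 4.19 and 3.05 (1.74 ± 0.51). AT5G14920 was present early and fell, from 10.92, 12.80 and 12.42 FPKM to 0 (-3.70 ± 0.46, adjusted p = 1.41e-05); CVP2 fell too (-1.15 ± 0.41), a call lost without any 1 of 5 libraries, the 3 of CZy24 and CZy14 replicates 1 and 2. The calls of ABCG25 and AT1G56020 were lost without CZy24 replicate 2 or 3, and that of AT2G14878 without any 1 of 5 libraries. The crosses shared 7 risen genes, 28.0% of those in the Ler-mother cross and 58.3% of those in the Col-mother cross: ABCG25, AT1G34640, AT2G14878, AT4G03100, AT4G38690, AT5G44260 and SEN1.

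SEN1 reached the highest hybrid levels but unevenly, with 86.29, 1.46 and 58.49 FPKM in LZy24 and 85.83, 4.21 and 75.19 in CZy24, so the second replicate was low in both crosses. Its rise was called in both (4.55 ± 1.21, adjusted p = 0.00693, and 3.82 ± 1.21, adjusted p = 0.0159); in the Col-mother cross the call was lost without CZy14 replicate 3, CZy24 replicate 1 or CZy24 replicate 3. AT5G44260 was even in both, with 33.52, 26.57 and 25.01 FPKM in LZy24 (4.87 ± 0.35). In 1C, SEN1 did not exceed 6.76 FPKM and AT5G44260 did not exceed 13.81.

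At 14 hours the reciprocal crosses differed at 2 of 51 genes (3.92%), both lower in LZy14, with 0 higher, against 5.62% of all loci higher and 9.18% lower. At an unadjusted p under 0.05 there were 4 higher and 4 lower, 15.7% of the set against 34.3% of all loci. AT5G14920 had 0, 3.45 and 1.2 FPKM in LZy14 and 10.92, 12.80 and 12.42 in CZy14 (-2.61 ± 0.46, adjusted p = 0.00133), and AT4G03100 was listed at 0 in LZy14 and had 0.45, 1.27 and 3.85 FPKM in CZy14 (-1.33 ± 0.37, adjusted p = 0.0214). The second call was lost without LZy14 replicate 3 or CZy14 replicate 3. The balance of directions was not stable: without LZy14 replicate 1 there were 3 higher and 2 lower, without CZy14 replicate 3 there were 1 and 3, and without LZy14 replicate 3 there were 0 and 1. With 0.1 added in place of 1, or with all 27 libraries in 1 fit, 3 were higher and 3 lower.

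At 24 hours 19 genes (37.3%) were higher in LZy24 than in CZy24, 3 lower and 29 not called, against 12.3% and 12.1% of all loci. The median difference was 0.46 against 0.00. Of the set, 31 genes were listed at 0 in all CZy24 libraries and 11 in all LZy24 libraries. Such genes could differ in 1 direction only, so the shares of all loci are no like measure. AT1G05440, KCS20, AT1G66250 and CYCB2;1 were listed at 0 in all CZy24 libraries, and their differences were 4.78 ± 0.28, 4.34 ± 0.27, 3.71 ± 0.27 and 2.61 ± 0.25 on the log2(FPKM + 1) scale (adjusted p = 1.78e-07, 3.42e-07, 8.91e-07 and 7.48e-06 by limma). CYCB2;1 had 6.40, 3.69 and 5.54 FPKM in LZy24, about the level of the lowest 1C library. AT5G66800 differed by 2.90 ± 0.41, CYP71B5 by 2.83 ± 0.45 and AT4G03100, present in both, by 1.81 ± 0.37, from 7.56, 5.68 and 9.25 FPKM in CZy24 to 30.41, 24.15 and 31.27 in LZy24. The reverse held for bZIP70, listed at 0 in LZy24 (-2.60 ± 0.32, adjusted p = 4.98e-05), TEL2, at 0, 0.84 and 0.08 FPKM in LZy24 (-2.47 ± 0.31, adjusted p = 5.23e-05), and AT4G38690, at 4.89, 5.66 and 6.29 FPKM in LZy24 (-1.70 ± 0.50, adjusted p = 0.0173). The call of AT4G38690 was lost without LZy24 replicate 1 or CZy24 replicate 3, and the calls of AT1G25510, AT4G31760, AT5G08460, AT5G64600, AUF2 and GPAT1 without certain single libraries. With only the groups compared in the fit, 11 genes were higher in LZy24 and 3 lower, beside 1790 and 1617 of all loci.

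**Figure D4:**
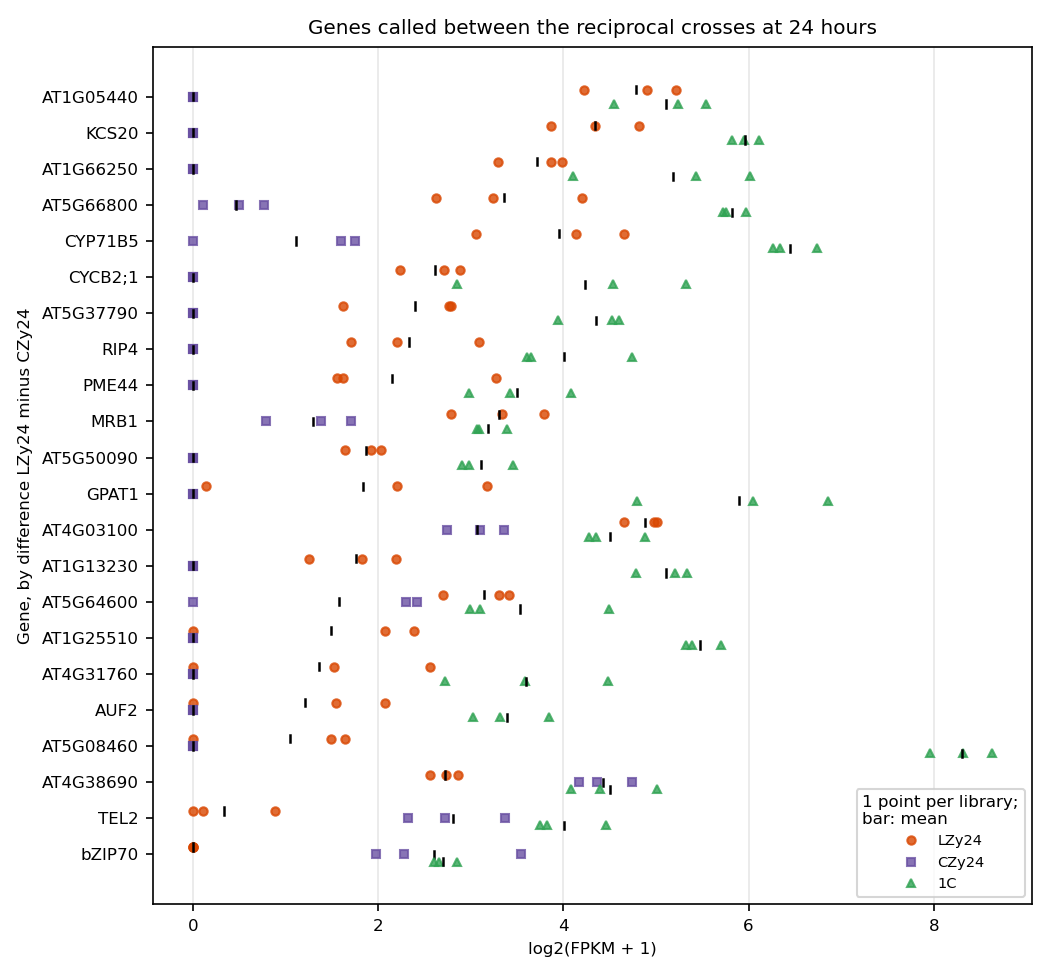
Levels in single libraries of LZy24 (circles), CZy24 (squares) and 1C (triangles) of the 22 genes called between the reciprocal crosses at 24 hours, as log2(FPKM + 1) (x axis); black bars are means of 3 libraries, and genes are ordered by the difference LZy24 minus CZy24. The 19 upper genes are higher in LZy24, and AT4G38690, TEL2 and bZIP70 are higher in CZy24.

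Beside the set, RKD4 and cell cycle genes differed in level between these groups. RKD4, a transcription factor gene of the zygote, had 90.71, 71.71 and 77.59 FPKM in LZy24 and 254.83, 329.78 and 330.75 in CZy24, beside 228.20 to 259.18 in Col Zy24 and 1.54 to 3.56 in 1C. SSP, a paternal activator of zygote elongation, did not share that order, with 9.47, 7.57 and 7.17 FPKM in LZy24, 2.47, 6.76 and 7.87 in CZy24 and 0 in 1C. Of 41 tested zygote and embryo regulators 4 were higher in LZy24 and 4 lower, beside 12.3% and 12.1% of all loci. Of 37 tested cyclin, cyclin-dependent kinase and inhibitor genes 17 were higher in LZy24 and 2 lower, beside the same shares of all loci. The summed level of the listed genes of this kind was 2775 to 3144 FPKM in LZy24, 1197 to 1646 in CZy24 and 1910 to 4102 in 1C. CYCB1;1 had 135.41, 98.81 and 116.80 FPKM in LZy24 and 30.18, 2.91 and 28.48 in CZy24, so CZy24 replicate 2 stood apart, as did Zy24 replicate 1, listed at 0 beside 37.48 and 31.89. Without CZy24 replicate 2, 14 genes of the set were higher in LZy24 and 3 lower, beside 2202 and 1983 of all loci. Leaving out other libraries lowered the count as much. It gave 13 and 3 without LZy24 replicate 3, beside 2075 and 2045 loci, and 14 and 2 without CZy24 replicate 3, beside 2274 and 2307. Among markers of other tissues, 0 of 6 tested endosperm and central cell markers were called by limma between LZy24 and CZy24 (1 higher and 1 lower at an unadjusted p under 0.05), and of 5 seed coat markers 1 was higher and 1 lower. EDE1 averaged 25.0 and 5.89 FPKM and SUC5 135 and 209, and the seed coat genes MYB5 20.3 and 0 and TT8 0 and 4.73. The 13 endosperm and central cell markers summed to 120 to 242 and 164 to 259 FPKM (7 and 8 of them at 0 in all 3 libraries) and the 16 seed coat markers to 17.7 to 26.9 and 1.11 to 8.29 (12 and 13 at 0). The part of these genes in the difference was not tested, and the direction of the cross and the stage reached at 24 hours cannot be told apart in these groups.

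The difference between the crosses in their change from 14 to 24 hours was tested in the same fit, a comparison added after the data were seen. The change was larger in the Ler-mother cross for 12 genes (23.5%) and smaller for 4 (7.84%), against 14.7% and 11.3% of all loci, and the median was 0.72 against 0.04. AT1G05440 (4.78 ± 0.39, adjusted p = 4.52e-06) and KCS20 (4.32 ± 0.39, adjusted p = 8.63e-06) led the first group, and AAP1 (-3.21 ± 0.92, adjusted p = 0.0181) and AT4G38690 (-3.16 ± 0.70, adjusted p = 0.00442) the second. AAP1 had 0, 5.93 and 2.55 FPKM in LZy14 and 0, 4.23 and 2.41 in LZy24, whereas it rose in the Col-mother cross.

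In 32C against the mean of the 24-hour hybrid groups, libraries the choice did not use, 44 genes (86.3%) were higher, 4 lower and 3 not called, against 19.2% and 14.1% of all loci; the median difference was 4.05 against 0.01. The accession background differs along with the stage in this comparison. Choosing genes absent from Col zygotes and present in 1C also favours a higher level in 32C. The shares of all loci, which were not chosen so, are therefore no like measure. AT3G24250 differed most (12.43 ± 0.19, adjusted p = 1.34e-14), from 0 in every hybrid library, followed by AT5G08460 (8.41 ± 0.31), AT2G34700 (7.79 ± 0.22) and AT4G31760 (7.77 ± 0.40). Summed over the set, 32C libraries held 8199 to 9517 FPKM, 1C 1247 to 1678, LZy24 200 to 326 and CZy24 94.8 to 184. The auxin genes AFB2 and LAX1 were higher by 5.18 ± 0.17 and 5.90 ± 0.17, and HAT3 and CRF2 by 6.37 ± 0.17 and 5.45 ± 0.18 (adjusted p = 1.88e-11, 4.75e-12, 3.53e-12 and 1.89e-11). Of the listed auxin genes, 3 of 6 tested receptors and 11 of 15 response factors were higher in 32C, and 0 and 1 lower. For Aux/IAA repressors these counts were 14 of 20 and 0, and for transport genes 15 of 19 and 1. Some of these genes passed the filter only through 32C, which favours a higher call, such as IAA1 (61.4 FPKM in 32C, at most 0.233 in other group means). Other lists did likewise, with 24 of 41 zygote and embryo regulators higher (5 lower) and 16 of 26 developmental receptor kinases (3 lower). In the other direction were SEN1 (-4.79 ± 1.05, adjusted p = 0.00178), AT5G44260 (-3.70 ± 0.30), MRB1 (-1.81 ± 0.44) and bZIP70 (-1.13 ± 0.28), whose call was lost without CZy24 replicate 1. The 3 genes not called were AT1G56020, AT4G38690 and AT5G50090, and the calls of AT1G74300 and AT5G64600 were lost without certain single libraries.

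The loci outside the set whose 9 group means, on the log2(FPKM + 1) scale, correlated most with the mean profile of the 51 genes were AT1G51355 (Pearson r = 0.985), annotated as a cyclin-dependent kinase inhibitor like SMR3, NF-YA3 (0.982), SBPASE (0.981), AT5G54020 (0.979) and AT5G41060 (0.977). NF-YA3, a nuclear factor Y subunit, had 85.21, 73.67 and 103.64 FPKM in 1C, 5.10, 5.08 and 5.27 in LZy24 and 0 in every CZy24 library, and it missed the set through the 1.04 FPKM of 1 EC library. AT1G51355, SBPASE and AT5G54020 averaged 1.74 to 1.96 FPKM in 1C, and their lowest 1C libraries held 0, 0.580 and 1.27 FPKM. The correlations describe 9 group means that share the same libraries.

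The 50 protein-coding genes had a median protein length of 416 amino acids and a median transcript length of 1743 bases, against 373 and 1634 over all protein-coding loci listed. All 51 genes together lay on every chromosome, 17 on chromosome 1, 4 on chromosome 2, 9 on chromosome 3, 8 on chromosome 4 and 13 on chromosome 5, beside 6397, 3825, 4842, 3746 and 5701 of all 24607 loci. The closest pair, AT1G05440 and CVP2, had 2 other loci between them.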

How the data were processed

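RNA of 27 libraries, 3 in each of 9 groups taken from the labels, was analysed from FPKM values deposited by the authors, 1 table per library with loci above 0 only. TopHat2, RSEM and the build TAIR10 appear in the submitters' processing notes, with no version and no step; strand is not given in the sources used here. Loci were found by tag in RefSeq's TAIR10.1 annotation (24511 of 24607 loci, all 51 genes of the set). The genes, lists and tests were chosen with earlier results of these data known; roles were assigned by hand after the levels were seen. List symbols that RefSeq gives to several loci were set by locus for 6 genes.

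Differences were tested with limma 3.58.1 (R 4.3.3) on log2(FPKM + 1), computed here from the deposited values without scaling, for 19868 loci with at least 1 FPKM in at least 3 libraries, a filter all 51 genes pass through 1C. The 15 hybrid and 32C libraries shared 1 fit (variance trend, robust moderation, Benjamini-Hochberg adjustment over all loci). A group listed at 0 in all its libraries adds no spread to that fit. For genes expressed in only some groups, SE and p can therefore understate the spread between the libraries that express them. Adding 1 understates the log2 change of weakly expressed genes. The fit was tested on simulated data in which only loci with a mean level well above 0 were changed. That simulation does not show how the fit performs for genes listed at 0 in whole groups. Errors of means are SD with n = 3, those of log2 changes SE. Named genes were the 10 highest in 1C, in 32C and in hybrids, members of lists (auxin, cyclins and others), regulators, and up to 12 called genes per hybrid comparison; further genes were named after their values were seen. The alternatives varied pseudocount, filter, scaling, libraries in the fit, the replicate block and each library. Replicates were not paired, since the labels do not say that a replicate number marks a shared plant, day or batch. Deviations of same-numbered replicates from their group means correlated at -0.03 to 0.08. Transcripts were compared with blastn 2.17.0; other computing used Python 3.11.15, numpy 2.4.6 and pandas 2.3.3.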

Additional observations from a re-analysis of the deposited data

Results flagged for a closer look

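For 16 of the 51 genes the change from 14 to 24 hours differed between the reciprocal crosses by the limma test of that difference. It was larger in the cross with a Ler mother for AT1G05440 (4.78), KCS20 (4.32), AT1G66250 (3.71), AT5G37790 (3.21, adjusted p = 0.00132), AT5G14920 (3.20, adjusted p = 0.0025), AT5G66800 (3.15, adjusted p = 0.00125), AT4G03100 (3.15, adjusted p = 0.000687), CYP71B5 (2.83, adjusted p = 0.00494), CYCB2;1 (2.61, adjusted p = 0.00016), RIP4 (2.33, adjusted p = 0.00219), PME44 (2.13, adjusted p = 0.00852) and AT1G13230 (1.76, adjusted p = 0.00318). For AT5G14920 the value rests on its fall in the Col-mother cross, from 10.92, 12.80 and 12.42 FPKM to 0. It was smaller in the Ler-mother cross for AAP1 (-3.21), AT4G38690 (-3.16), bZIP70 (-2.60, adjusted p = 0.000923) and TEL2 (-2.47, adjusted p = 0.000974). All 16 calls held with each hybrid library left out in turn. Such calls were not particular to the set, since 5161 of all 19868 loci tested were called. The change was larger in the Ler-mother cross for 23.5% of the set and 14.7% of all loci, and smaller for 7.84% and 11.3%. These shares were not compared by a test.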

How the results depend on the processing

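Of 2288 single-gene values under alternatives 158 lost their call and 0 reversed. Balances of higher and lower calls did turn, among them LZy14 against CZy14 in the set, as given above, and over all loci LZy24 against CZy24 from 2453 higher and 2404 lower to 1286 and 1600 with 5 added, LZy24 against LZy14 from 3448 and 3802 to 3535 and 3498 under quantile normalization, and 32C against hybrids from 3821 and 2804 to 3231 and 3332 under it. Adding 5 in place of 1 lowered the genes called for LZy24 against LZy14 to 11 (11 higher, 0 lower), beside 4835 loci (2411 and 2424). For CZy24 against CZy14 it left 9 genes (8 and 1), beside 5881 loci (2897 and 2984). LZy14 against CZy14 was left with 1 gene (0 and 1), beside 1373 loci (513 and 860). LZy24 against CZy24 was left with 11 genes (8 and 3), beside 2886 loci (1286 and 1600). The loci called in 32C against hybrids fell to 4302, with 41 genes of the set. Fitting only the groups compared gave 9 genes for CZy24 against CZy14, beside 6801 loci, and 14 for LZy24 against CZy24, beside 3407. For LZy14 against CZy14 it gave 1 gene, beside 1503 loci. That comparison also gave 6 genes with 0.1 added (2844 loci), 6 with all 27 libraries in 1 fit (2935) and 1 under quantile normalization (2871). The set itself held 96 genes with an upper limit of 2 FPKM, 106 with a lower limit of 2, 30 with a lower limit of 10 and 37 with an upper limit of 0.5. Leaving out 1 library gave 51 to 72 genes in the set (72 without Zy14 replicate 3). Such fits called 19 to 26 genes for LZy24 against LZy14 (6402 to 7369 of all loci) and 10 to 13 for CZy24 against CZy14 (8197 to 8479). They called 1 to 5 for LZy14 against CZy14 (2027 to 3181) and 16 to 22 for LZy24 against CZy24 (4011 to 4997). For 32C against hybrids the range was 47 to 49 (6031 to 6713), and for the difference of the changes 16 to 21 (4274 to 5818). For 32C against 1C, 36 to 40 genes were outside overlap. The same replicate numbers mark no shared plant in the labels. With the replicate block 27, 14, 3, 22, 49 and 16 genes were called, beside 7247, 8645, 2890, 4825, 6627 and 5063 loci. Scaling to equal sums moved the median change of all loci to -0.165 for LZy24 against LZy14 and -0.270 for CZy24 against CZy14, and the share of higher calls in the former from 47.6% to 37.6%, with 25 and 12 genes of the set still rising; quantile normalization moved that share for LZy14 against CZy14 from 38% to 48.9%. Depth is known only as an estimate, so low values carry no interval.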
